A study of Sus scrofa with 30 samples.

Results

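Transcript levels in the sow mammary gland on day 2 after weaning (W2) were set against those on day 70 of gestation (MG), to ask how far the gland had returned to a pre-secretory state. The series holds 30 libraries of mammary tissue from related Danish Landrace × Yorkshire sows that had farrowed before, 6 at each of 5 stages. Beside MG and W2 these were late gestation (LG, day 110), early lactation (EL, 2 days after farrowing) and peak lactation (PL, 10 days after farrowing). The tissue was parenchyma below a teat, cut away from fat, skin and connective tissue, and no treatment or genetic change was given. The comparison rests on 6 of the 30 libraries, MG 1, 3 and 6 and W2 2, 3 and 6, each from its own sow. MG 2, 4 and 5 and W2 1, 4 and 5 were left out because they were near-identical to one another (the largest median difference between 2 of them was 1.80% in MG and 1.81% in W2) and because their mean repeated that of the other 3 samples to within 0.698% and 0.692%. The counted samples differed by 20.5% to 22.9% in MG and by 21.4% to 24.5% in W2. In the sample records the libraries titled MG carry the stage name early lactation and those titled EL the stage name mid-gestation. The titles were followed, and the comparison with the stage names exchanged is given with the other processing choices. The values of a stage are given in the sample order MG 1, 3, 6, W2 2, 3, 6 and PL 2, 3, 6.

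The mammary epithelium grows as ducts and then as alveoli in pregnancy, and its luminal cells turn to milk secretion around birth under prolactin, which acts through STAT5. When suckling stops, milk stays in the gland, prolactin signalling falls and STAT3 signalling rises, and the alveolar cells die and are cleared while proteases remodel the matrix. This process is called involution, and it leads back to a gland that can grow again in the next pregnancy.

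The table held 61773 transcripts, of which 32726 carried a reference identifier and 29047 (names beginning with MSTRG) had been assembled from the reads. The deposited values are named FPKM (fragments scaled to transcript length and library size), but each library added up to 997480 to 1002643, so that they are shares of a library, and they are called units here. Transcripts of a gene or assembled locus were also added up to 26019 gene sums. The sum of a reference gene leaves out any isoform that had been assembled under an MSTRG name, because the table does not pair these names with genes. Reads per transcript are not in the table, so the precision of a value comes from the spread between sows alone. The 6 libraries held 43663 to 46114 transcripts above 0. Markers of luminal epithelium (EPCAM, KRT8, KRT19) and of myoepithelium (ACTA2, TAGLN, KRT5) were present in all 6 libraries, while KRT14 and KRT17 of the basal layer were not in the table.

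The weaned gland stood close to the mid-gestation gland across the transcriptome. Of 61773 transcripts 17 differed between W2 and MG with a log2 fold change of 2 or more in size and an adjusted p below 0.05 (limma, log2(units + 0.5), Benjamini-Hochberg over all transcripts), which is 0.0275%. Of these, 9 were higher and 8 lower in W2. Of the 26019 gene sums 3 passed the same limits (0.0115%), and all 3 were assembled loci. At an unadjusted p below 0.05, 514 gene sums were higher in W2 (1.98%) and 290 lower (1.11%). More gene sums were called against peak lactation, which came between both stages. On gene sums 1029 passed the same limits for PL against MG (3.95%) and 1357 for W2 against PL (5.22%). These 3 comparisons share samples, so their counts are given side by side only. The count for W2 against MG was not stable. Leaving out any 1 of the 6 libraries gave 61 (without MG 3) to 82 transcripts (without W2 2) and 7 (without MG 1) to 21 gene sums (without MG 6), and a fit on MG and W2 alone gave 13 transcripts, of which 1 was among the 17, and 19 gene sums.

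A p above the threshold does not show that a level was the same, so the gene sums were also counted by their 95% confidence intervals. Among 21214 sums with a mean of at least 1 unit over MG and W2, the interval of the W2 minus MG difference lay wholly within 1 log2 unit of 0 for 9439, or 44.5%. Interval counts of the gene lists below are to be read beside this share, and a list near it does no more than gene sums at large. Counted in the same way, 2958 sums (14.4%) lay within that range for PL against MG and 2341 (11.2%) for W2 against PL. The median absolute log2 difference of all gene sums was 0.23 for W2 against MG, 0.70 for PL against MG and 0.80 for W2 against PL. The median signed difference of W2 from MG was 0.10 over all gene sums, the value against which the medians of gene lists below are to be read. For PL against MG that median was -0.57, so a list or gene that stands lower in PL by this much does no more than the typical gene sum. Scaling the libraries by median ratios would move W2 against MG by -0.06 and PL against MG by 0.67 on the log2 scale, and PL levels are therefore given as shares of a library only.

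Pairs of libraries gave the same picture without a test per gene. The distance of a pair was taken as the median absolute log2 difference over 20917 gene sums with a mean of at least 1 unit. It was 0.28 to 0.34 within MG, 0.29 to 0.34 within W2 and 0.26 to 0.41 between W2 and MG (9 pairs, median 0.33). The nearest other library of each of the 3 W2 samples was an MG library. W2 2 was nearest to MG 6, and W2 3 and W2 6 were nearest to MG 3. In turn MG 3 and MG 6 were nearest to W2 3 and W2 2, while MG 1 was nearest to LG 3. The median distances to the other stages were larger, at 0.39 to LG, 0.65 to EL and 0.77 to PL. The W2 to LG pairs (0.29 to 0.48) overlapped the W2 to MG pairs, and W2 2 was nearer to LG 4 (0.293) than to MG 3 (0.315). Pairs of MG and LG also had a median of 0.33 (0.28 to 0.43), so closeness to MG was not particular to W2. The mean distance between W2 and MG exceeded the mean distance within the stages by 0.00649 (exact permutation p = 0.2 over the 10 ways to divide the 6 libraries). The same excess was 0.0889 for W2 and LG, 0.256 for W2 and EL and 0.447 for W2 and PL, each with an exact permutation p of 0.1, the smallest that 10 divisions allow. With 3 against 3 libraries a two-sided exact permutation p of a single value cannot go below 0.1 either. Pairs within PL lay 0.35 to 0.79 apart (median 0.76), near the median distance from W2 to PL. The libraries were not scaled for these distances, and scaling by median ratios would move W2 against PL by -0.73 on the log2 scale.

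**Figure D1:**
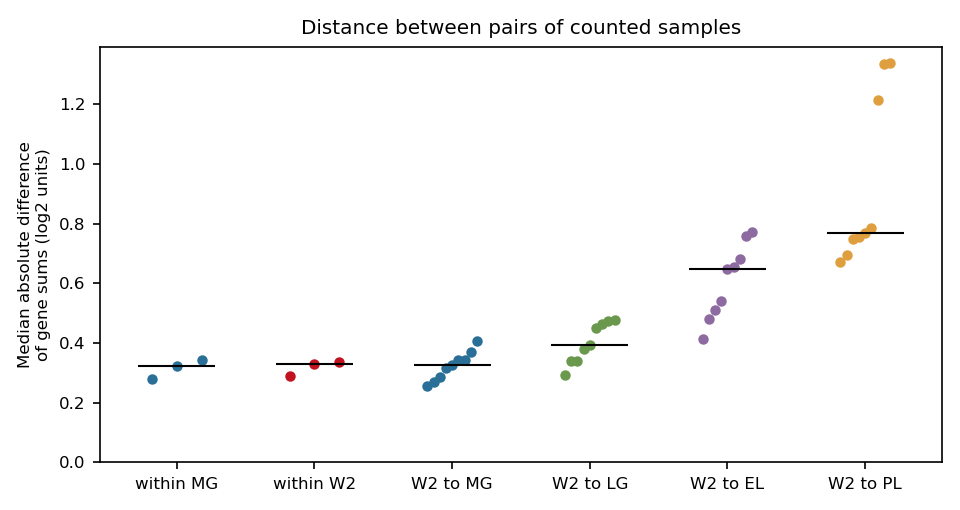
Distance between pairs of counted libraries, as the median absolute difference of gene sums on the log2 scale (vertical axis), within MG, within W2 and between W2 and each other stage. Points are pairs and lines are medians: the W2 to MG pairs (median 0.33) cover the range of the pairs within each stage, and the 3 highest W2 to PL pairs all hold PL 2.

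By the median of a list, milk proteins were the group in which the weaned gland stood furthest from mid-gestation, and it stood below it. CSN2 (beta-casein, chromosome 8, 66914231 to 66922636 of Sscrofa11.1) was at 16977, 4862 and 7615 units in MG and at 3799, 1405 and 2901 in W2. All 3 W2 values lay below the lowest MG value, beside 446 of 21214 gene sums with a mean of at least 1 unit that lay below MG in this way and 1938 that lay above (11.2% without overlap in all). PL held 98647, 38297 and 17661. The W2 minus MG log2 difference of CSN2 was -1.78 (standard error 0.62) with a 95% interval of -3.13 to -0.43 and an unadjusted p of 0.014 (limma), which did not pass the adjustment over all gene sums. CSN3 (kappa-casein, which stabilises the micelle) went from 6961, 2969 and 4041 in MG to 1642, 1640.0 and 2515 in W2, a log2 difference of -1.21 (standard error 0.44), again without overlap. CSN1S1 (alpha-S1-casein) stood at 5164, 4045 and 4921 in MG and at 2626, 2722 and 2548 in W2, a log2 difference of -0.83 (standard error 0.32). These 3 caseins were the members at an unadjusted p below 0.05, and none of the 7 milk proteins passed after adjustment (adjusted p = 1). With the stage names of the sample records in place of the titles, the log2 differences of CSN2, CSN3 and CSN1S1 were -4.19, -3.17 and -2.37, with limma adjusted p of 0.0176, 0.0126 and 0.0123.

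The 4 caseins together summed to 29357, 11898 and 17258 units in MG, 8107, 5777 and 7981 in W2 and 242077, 124129.7 and 83286 in PL. The W2 mean was 37.4% of the MG mean and 4.86% of the PL mean, and the W2 and MG libraries did not overlap (exact permutation p = 0.1). MG 1 carried the highest casein sum, and the log2 difference of CSN2 was -1.29 without MG 1 and -1.37 without W2 3, the lowest library.

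The less abundant milk genes varied widely between MG sows. CSN1S2 (alpha-S2-casein) was at 255, 23.2 and 681 in MG and 39.3, 9.95 and 17.2 in W2, against 84151, 47887 and 32080.2 in PL. LALBA (alpha-lactalbumin, the regulator of lactose synthase) was at 94.1, 6.60 and 66.7 in MG and 29.5, 2.31 and 13.7 in W2, against 30875, 6565 and 2041 in PL. WAP (whey acidic protein) was at 10.1, 1.22 and 51.8 in MG and 3.99, 1.14 and 3.46 in W2, against 12052, 8104 and 5910.1 in PL. For these 3 genes MG and W2 overlapped, and both stages lay below every PL value. PAEP (beta-lactoglobulin) did not follow the others. It was at 133989.7, 100471 and 124973 in MG and 130309, 98685 and 104359 in W2, and at 122069, 110169 and 134097 in PL, the highest of the 7 milk proteins in each of these 9 libraries. Its W2 minus MG log2 difference was -0.11 (standard error 0.14) with an interval of -0.42 to 0.21. The median log2 difference of the 7 was -1.68 for W2 against MG and 2.96 for PL against MG. In PL 5 of the 7 were above MG at an adjusted p below 0.05, beside 2.23% of all gene sums.

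No gene of milk lipid, lactose synthesis or mineral transport reached an unadjusted p below 0.05, and whether these lists differ from the milk proteins was not tested. Of 18 genes of milk fat synthesis and the fat globule none reached an unadjusted p below 0.05, with a median log2 difference of -0.05, and 6 had an interval within 1. FABP3, the fatty acid binding protein of the secreting gland, was at 5733, 4116 and 4604 in MG and 4859, 3667 and 4579.7 in W2. PLIN2, which coats lipid droplets, was at 1366, 1106 and 1244 in MG and 1457, 1176 and 1289.6 in W2. MFGE8, a protein of the globule membrane, was at 1236, 859 and 581 in MG and 870.1, 793 and 844 in W2. All 3 overlapped between the stages. LPL, which releases fatty acids from blood lipid, ranged from 155 to 538 in MG and from 73.9 to 414 in W2, a spread too wide to place it within 1 log2 unit (interval -2.34 to 1.05).

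Of 11 measured genes of lactose synthesis and mineral transport none reached an unadjusted p below 0.05 and the median was -0.04, with 6 of 9 intervals within 1. B4GALT1, the galactosyltransferase of lactose synthase, was at 312, 224 and 255 in MG and 236, 213 and 259.9 in W2 (interval -0.60 to 0.30). UGP2, which makes the UDP-glucose used for lactose, was at 263, 161 and 172 in MG and 194, 167 and 208 in W2. SLC34A2, a phosphate transporter, was at 116, 160.3 and 137 in MG and 136, 136 and 124 in W2. MG and W2 overlapped in these 3 genes. HK1, a hexokinase, was at 24.5, 33.5 and 32.6 in MG and 33.1, 40.0 and 36.9 in W2. Of the 16 genes of folding and entry into the secretory pathway 15 had intervals within 1, beside 44.5% of all sums with a mean of at least 1 unit. XBP1, the transcription factor of the secretory programme, differed by -0.07 (standard error 0.35) on the log2 scale, and CALR, a calcium-binding chaperone, by 0.01 (standard error 0.14). SSR4 and SSR2, subunits of the translocon-associated complex, differed by 0.01 and -0.05. SSR3, another subunit, was the member at an unadjusted p below 0.05, with 153, 147 and 140.5 in MG and 86.0, 85.4 and 148 in W2, where W2 6 lay within the MG range.

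**Figure D2:**
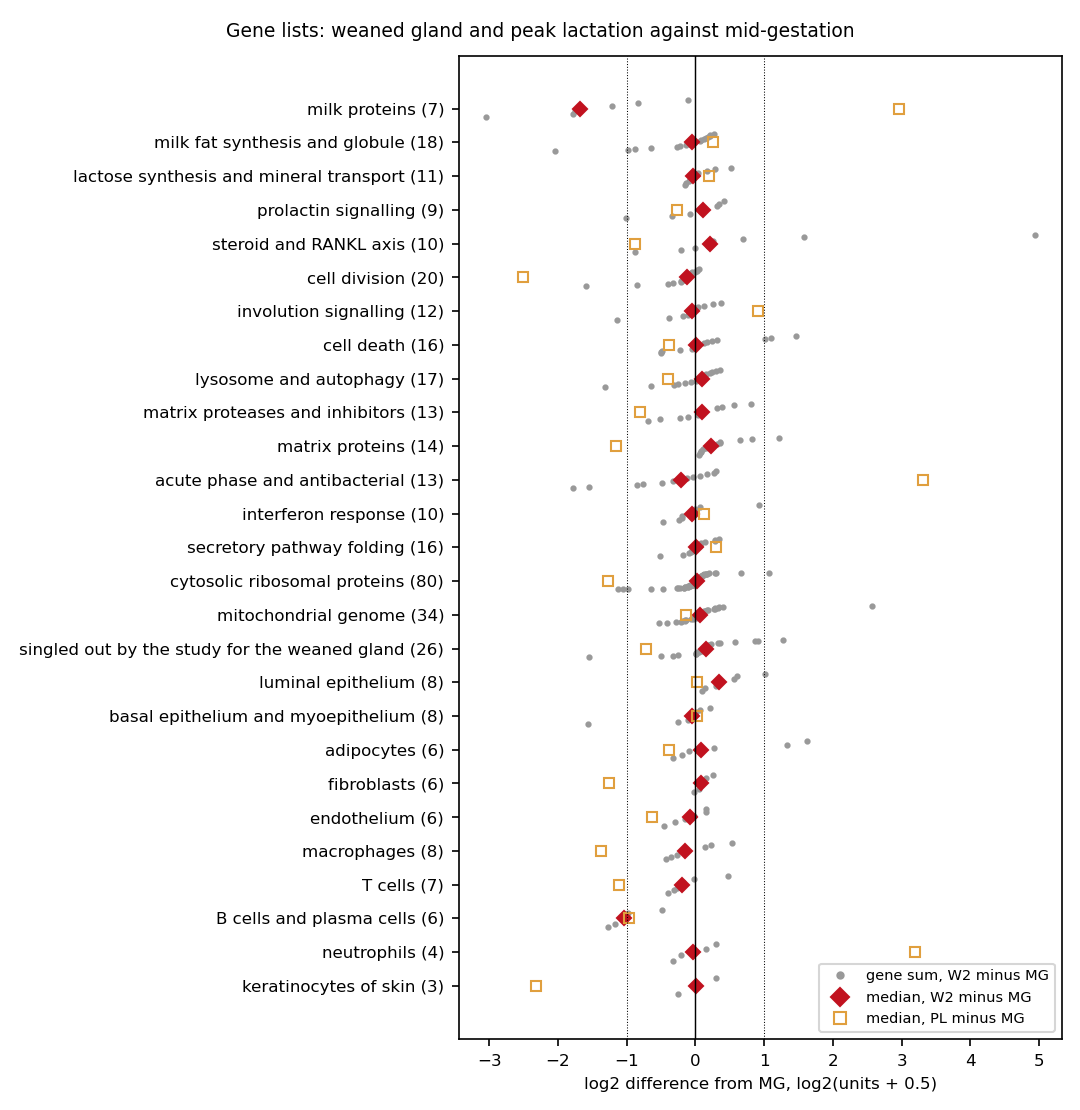
Log2 difference from MG of the members of 27 gene lists (horizontal axis, log2(units + 0.5), number of measured genes in brackets). Grey points are gene sums for W2 minus MG, red diamonds their median and open squares the median for PL minus MG, which shares the MG samples: 25 of the 27 red medians lie within 0.5 of 0, and those of milk proteins (-1.68) and of B cells and plasma cells (-1.04) do not.

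Of 9 measured genes of prolactin signalling none reached an unadjusted p below 0.05, and 4 of 8 had an interval within 1. ELF5, the transcription factor of alveolar cells, ranged from 64.2 to 400.2 units in MG and from 84.7 to 217 in W2. AKT1, a kinase of survival signalling, was at 114, 119.7 and 114 in MG and 112, 117 and 143 in W2. SOCS2, a feedback inhibitor that STAT5 induces, was at 18.6, 14.5 and 19.8 in MG, 8.55, 10.1 and 9.33 in PL and 19.8, 14.5 and 16.0 in W2. Both genes overlapped between MG and W2. The sum of STAT5B, which with its neighbour and close relative STAT5A carries the prolactin signal, was at 137, 147 and 84.6 in MG and 112, 192 and 161 in W2, with overlap and a log2 difference of 0.34 (standard error 0.37), although 1 of its transcripts was called. STAT5A was at 7.79, 11.2 and 7.25 in MG and 8.56, 13.4 and 13.8 in W2. Reads of these close relatives may have been divided between them in the counting.

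The 10 genes of the steroid and RANKL axis, by which progesterone drives branching and alveolar growth, had a median log2 difference of 0.22, with 1 of 8 intervals within 1. TNFSF11 (RANKL, the paracrine signal that progesterone induces) was at 8.06, 29.6 and 9.68 in MG, 1.12, 1.67 and 2.34 in PL and 14.4, 19.7 and 12.4 in W2. Its receptor TNFRSF11A was at 15.1, 27.5 and 30.7 in MG and 29.7, 26.5 and 27.5 in W2. GATA3, a luminal lineage factor, was at 55.3, 32.9 and 28.1 in MG and 39.3, 39.1 and 49.3 in W2. The W2 and MG values of these 3 genes overlapped, and all W2 values of TNFSF11 lay above all PL values. VDR, the vitamin D receptor (chromosome 5, 78205807 to 78266505), was the exception in this list. It was at 0.0461, 0.180 and 7.43 units in MG and at 40.4, 43.0 and 47.0 in W2, without overlap, and at 26.2, 50.8 and 18.1 in PL. The W2 samples thus stood in the PL range and not in that of MG. VDR was already at 73.5, 54.6 and 34.8 in LG 1, 3 and 4, and at 75.8, 2.94 and 18.1 in EL 3, 4 and 6. Levels above MG were therefore not particular to PL and W2. The log2 difference was 4.94 (standard error 1.07) with an interval of 2.62 to 7.25, an unadjusted p of 0.00054 and an adjusted p of 0.505 (limma over all gene sums), so that it was not called. MG 6 stood apart from the other MG samples here, and without it the VDR log2 difference was 6.17 with an adjusted p of 0.0457.

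Genes of cell division lay near their mid-gestation level in W2. All 20 genes of the list were measured, and their median log2 difference was -0.13 for W2 against MG and -2.51 for PL against MG. PL was below MG at an adjusted p below 0.05 for 17 of the 20, beside 23.0% of all gene sums. For W2 against MG no member passed that limit (limma; 1 had an unadjusted p below 0.05). An interval within 1 was found for 14 of 18 genes with a mean of at least 1 unit, beside 44.5% of all such sums. PCNA, the sliding clamp of the replication fork, was at 82.2, 122 and 106 in MG, 27.0, 24.5 and 25.7 in PL and 61.5, 106 and 121 in W2. TYMS, which makes thymidylate, was at 60.3, 90.9 and 65.0 in MG, 7.63, 13.3 and 13.3 in PL and 37.6, 82.9 and 92.3 in W2. MCM6, a subunit of the replicative helicase, was at 36.0, 54.5 and 43.4 in MG, 13.0, 9.71 and 7.64 in PL and 27.4, 51.4 and 44.0 in W2. In these 3 genes the W2 and MG samples overlapped and every PL sample lay below both. BIRC5, a mitotic survival protein, showed the same order, with 32.6, 29.8 and 41.2 in MG, 7.26, 6.55 and 7.37 in PL and 29.0, 24.9 and 41.9 in W2. Summed over the 20 genes the level was 356, 496 and 445 in MG, 81.5, 82.2 and 73.0 in PL and 274, 429 and 509 in W2, with W2 2 the lowest and W2 6 the highest of the 6 MG and W2 libraries. PLK1, a mitotic kinase, was the member at an unadjusted p below 0.05, at 0.716, 0.443 and 1.48 in MG and 0.247, 0.257 and 0.185 in W2, most of them below 1 unit. MCM5, a helicase subunit that dividing cells use, was listed at 0 in all 6 libraries, so a value of 0 in this table need not mean that a gene was silent. In whole tissue, fewer cells of a kind and less RNA in each such cell cannot be told apart, here and in the groups that follow.

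**Figure D3:**
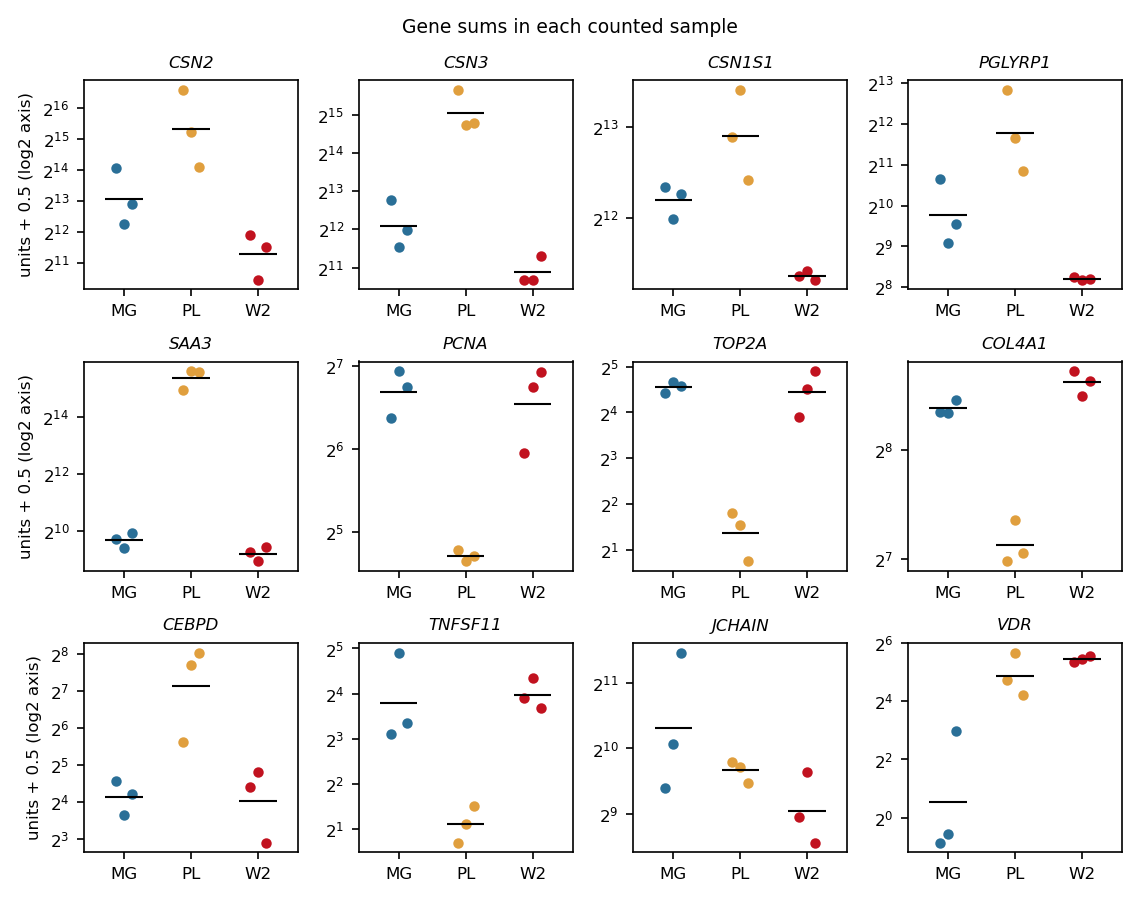
Gene sums of 12 genes in the 9 counted libraries of MG, PL and W2 (points, units + 0.5 on a log2 axis that differs between panels) with the mean on the log2 scale (lines). CSN2, CSN3, CSN1S1 and PGLYRP1 are lower in every W2 than in every MG sample, PCNA, TOP2A and TNFSF11 overlap between W2 and MG and are lower in PL, and VDR is high in PL and W2.

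Genes known for the start of involution were neither shown to differ from mid-gestation nor, for most, placed close to it. None of the 12 measured genes of involution signalling reached an unadjusted p below 0.05, and the median was -0.05 for W2 and 0.91 for PL, each against MG. The interval lay within 1 for 3 of 11 genes with a mean of at least 1 unit, beside 44.5% of all such sums. CEBPB, a transcription factor of growth and involution, was at 108, 140.0 and 116 in MG and 139, 157 and 179.5 in W2, a log2 difference of 0.38 (standard error 0.39). IGFBP5, which binds insulin-like growth factors and is known to rise in the regressing gland, was at 18.4, 32.5 and 37.9 in MG, 30.7, 285 and 139 in PL and 28.8, 45.6 and 30.2 in W2. JUN, an immediate early transcription factor, was at 33.6, 35.4 and 33.5 in MG and 45.7, 24.8 and 34.2 in W2. All 3 overlapped between MG and W2. IL6ST, the signalling chain shared by the receptors of LIF and related cytokines, was at 27.1, 33.1 and 26.1 in MG and 30.5, 36.8 and 1.48 in W2. W2 6 alone was low, and the IL6ST log2 difference of -1.14 became 0.22 without W2 6. CEBPD and STAT3, which act after LIF, were chosen for mention after their values were seen. CEBPD was at 22.9, 12.1 and 17.9 in MG, 48.4, 209 and 262 in PL and 20.5, 27.3 and 6.89 in W2. STAT3 was at 3.84, 9.77 and 8.21 in MG, 12.9, 14.9 and 36.3 in PL and 7.25, 4.62 and 10.1 in W2. For both genes MG and W2 overlapped and every PL value was higher.

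None of 16 cell death genes reached an unadjusted p below 0.05, with a median of 0.02 and 7 of 13 intervals within 1. MCL1, which holds back mitochondrial death, was at 87.6, 79.6 and 80.1 in MG and 76.1, 83.3 and 90.2 in W2. BCL2L1, of the same family, was at 26.8, 33.1 and 32.9 in MG and 34.1, 32.5 and 37.3 in W2. TNFRSF1A, a receptor of tumour necrosis factor, was at 49.3, 47.5 and 43.8 in MG and 46.6, 42.2 and 51.9 in W2. In each of these the stages overlapped, as they did for BID, which links death receptors to mitochondria, at 26.3, 31.0 and 26.9 in MG and 22.8, 27.3 and 31.7 in W2. Of 17 genes of lysosomes and autophagy 11 had an interval within 1, and the median was 0.10. The lysosomal proteases CTSZ and CTSB differed by -0.31 (standard error 0.20) and -0.15 (standard error 0.61) on the log2 scale, the membrane protein LAMP1 by 0.11 (standard error 0.24) and the protease LGMN by 0.01 (standard error 0.25). LAMP2, a further lysosomal membrane protein, was the member at an unadjusted p below 0.05, at 3.73, 5.61 and 2.43 in MG and 0.890, 1.19 and 1.61 in W2, lower in W2 without overlap.

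Collagens and other matrix genes did not pass the test between W2 and MG, while many were lower in PL. None of 14 measured matrix proteins reached an unadjusted p below 0.05 for W2 against MG, with a median of 0.23 and 7 of 14 intervals within 1, while 9 were lower in PL than in MG at an adjusted p below 0.05, beside 23.0% of all gene sums, with a median of -1.15. COL3A1, a fibrillar collagen, was at 795, 1104 and 966 in MG, 229, 445 and 245 in PL and 614, 1402 and 1084 in W2. COL1A1, the main collagen of connective tissue, was at 193, 284 and 321 in MG, 67.0, 207 and 89.3 in PL and 191, 390.1 and 323 in W2. SPARC, a collagen-binding protein, was at 535, 617 and 697 in MG and 644, 662 and 684 in W2. All 3 overlapped between MG and W2. COL4A1, a chain of basement membrane collagen, was at 326, 323 and 352 in MG and 422, 361 and 397 in W2. These samples did not overlap, but the COL4A1 log2 difference was 0.23 (standard error 0.12) with an interval of -0.04 to 0.51. Of 13 measured matrix proteases and inhibitors none reached an unadjusted p below 0.05, with a median of 0.10 and 6 of 12 intervals within 1. The inhibitor TIMP3 was at 80.0, 122 and 127 in MG and 91.7, 147 and 99.8 in W2. TIMP2, another inhibitor, was at 33.7, 47.2 and 72.2 in MG and 60.4, 56.3 and 42.6 in W2. MMP2, a gelatinase of the stroma, was at 57.7, 81.8 and 90.7 in MG and 51.7, 92.6 and 71.8 in W2. MG and W2 overlapped in each. MMP7 (matrilysin) was at 12.7, 37.1 and 10.00 in MG and 16.0, 35.3 and 19.2 in W2, with overlap as well.

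Acute phase and antibacterial genes, most of which were high in PL, included 2 that stood lower in W2 than in MG before adjustment. SAA3, an acute phase protein that the gland secretes, was at 837, 677 and 971 in MG, 31130.5, 49876 and 48332 in PL and 613, 483 and 678 in W2. PGLYRP1, which binds bacterial peptidoglycan, was at 1605, 541 and 747 in MG, 7333, 3222 and 1830.4 in PL and 304, 290.1 and 295 in W2. The 3 W2 samples of PGLYRP1 were close to one another and all below MG, a log2 difference of -1.54 (standard error 0.50) with an unadjusted p of 0.0088 and an adjusted p of 1 (limma). HP (haptoglobin, which binds free haemoglobin) was at 433, 100.1 and 72.8 in MG and 39.0, 25.6 and 75.1 in W2. HP overlapped through W2 6, and its log2 difference of -1.79 (standard error 0.75) was -1.01 without MG 1, the highest MG sample. LTF (lactoferrin, which binds iron) was at 786, 653 and 417 in MG and 527, 685 and 548 in W2, with overlap. Among the 13 genes 2, PGLYRP1 and HP, had an unadjusted p below 0.05, both lower in W2. The median was -0.20 for W2 and 3.31 for PL, each against MG, 1 of 9 intervals of W2 against MG lay within 1, and PL was higher than MG for 9 of the 13 and lower for 1 at an adjusted p below 0.05, beside 2.23% and 23.0% of all gene sums. Summed over the list, W2 (1591, 1572 and 1667 units) lay below MG (3734, 2078 and 2286) without overlap, beside 41645, 62655 and 62850.2 in PL.

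None of 10 measured interferon response genes reached an unadjusted p below 0.05, and the median was -0.05, with 4 of 9 intervals within 1. IRF7, which amplifies the response, was at 11.1, 11.0 and 12.1 in MG and 12.7, 10.3 and 13.0 in W2. MX1, an antiviral GTPase, was at 17.7, 0 and 17.3 in MG and 13.8, 5.55 and 12.5 in W2. Both genes overlapped between MG and W2. DDX58, an RNA sensor, was at 8.69, 7.39 and 7.11 in MG and 4.67, 8.20 and 6.91 in W2.

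The part of a library taken by cytosolic ribosomal proteins differed less between MG and W2 than between sows. It was 203098, 215973 and 196607 in MG, 57497, 93959 and 113059.7 in PL and 206471, 211936 and 199661 in W2. Of the 79 genes with a mean of at least 1 unit 69 had an interval within 1, beside 44.5% of all such sums. In PL 72 of all 80 were lower than in MG at an adjusted p below 0.05, beside 23.0% of all gene sums. RPLP1, RPS20, RPS18 and RPS12, abundant members, differed between W2 and MG by 0.08, 0.16, -0.01 and 0.11 on the log2 scale. At an unadjusted p below 0.05 RPL32 was higher and RPS15 and RPS29 were lower in W2. RPL32 was at 1608, 906 and 1589 in MG and 3441, 2013 and 3082 in W2, without overlap. RPS15 was at 2921, 3087 and 2844 in MG and 3112, 1035 and 901 in W2, low in W2 3 and W2 6 and not in W2 2. RPS29 was at 2033, 2320.4 and 1881 in MG and 1191, 1089 and 1770.3 in W2, without overlap. Ribosomal proteins have many near-identical pseudogenes, with which their reads may have been shared. Transcripts of the mitochondrial genome took 93657, 96782 and 92742 in MG and 99405, 98721 and 99751 in W2, so that all 3 W2 samples lay above MG by a small margin. None of the 34 genes reached an unadjusted p below 0.05, and 18 had an interval within 1. COX1, COX2 and COX3, subunits of cytochrome c oxidase, differed by 0.12, 0.05 and 0.05, and ATP8, a subunit of ATP synthase that overlaps ATP6 on the mitochondrial genome, by 0.07.

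The study singled out 26 genes for the weaned gland. This list was chosen on these samples and is not independent of them. The study reported transcripts of GNAS, COL9A1, PABPC4 and RPS3 as raised in W2 against PL, and described BCL2 as decreased at W2. The list thus mixes directions and reference stages, so its median against MG is no test of what the study stated. Against MG 1 of the 26, PGLYRP1, reached an unadjusted p below 0.05, and it was lower in W2. The median was 0.16, and 12 had an interval within 1. PL was lower than MG for 10 of the 26 and higher for 1 at an adjusted p below 0.05, beside 23.0% and 2.23% of all gene sums, with a median of -0.72 beside -0.57 over all gene sums. CTNNB1 (beta-catenin) was at 493, 659 and 689 in MG, 95.3, 289 and 245 in PL and 619.8, 795 and 677 in W2. CAV1, the coat protein of caveolae, was at 149, 176 and 182 in MG, 72.0, 92.7 and 71.4 in PL and 190.0, 215 and 156 in W2. RELA, a subunit of NF-kappaB, was at 23.1, 28.5 and 26.5 in MG, 1.45, 0 and 19.2 in PL and 27.6, 31.0 and 29.3 in W2. In these 3 genes the W2 samples overlapped those of MG, and every PL sample was below both. BCL2, which holds back cell death, was at 7.16, 10.2 and 10.3 in MG, 0.429, 1.53 and 0.994 in PL and 5.69, 4.35 and 9.91 in W2. CHD7, a chromatin remodeller, was at 1.78, 0.517 and 5.39 in MG and 0.779, 13.3 and 10.6 in W2. COL9A1, a collagen chain, was at 67.8, 8.97 and 14.8 in MG and 24.6, 21.2 and 109.9 in W2. The spread within each stage was wide for CHD7 and COL9A1, and both overlapped. GNAS (a G protein subunit), PABPC4 (which binds poly(A) tails) and RPS3 (a ribosomal protein) differed from MG by 0.36 (standard error 0.59), 0.05 (standard error 0.34) and 0.01 (standard error 0.22) on the log2 scale.

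Markers of most cell types held no member past an unadjusted p of 0.05. The median log2 difference over 8 measured luminal markers was 0.34, with 2 intervals within 1. EPCAM, the adhesion molecule of epithelium, was at 624, 534 and 475 in MG and 523, 572 and 717 in W2. The keratins KRT19 and KRT8 and the cadherin CDH1 differed by 0.32, 0.36 and 0.31, and each overlapped. The 8 measured basal and myoepithelial markers had a median of -0.05 and 4 intervals within 1, with ACTA2, the smooth muscle actin of myoepithelium, at 1232, 1308 and 1302 in MG and 1275, 1313 and 1462 in W2. The median was 0.08 for 6 fibroblast markers, -0.08 for 6 of endothelium, -0.16 for 8 of macrophages and -0.19 for 7 of T cells, and none of these reached an unadjusted p below 0.05. Their intervals lay within 1 for 5, 3, 3 and 4 markers in that order. LUM and DCN, small proteoglycans of fibroblasts, differed by 0.08 and 0.08. PECAM1 and KDR of endothelium differed by -0.29 and -0.15, and C1QB and C1QA of macrophages by -0.27 and -0.17. The neutrophil genes S100A8 and S100A9 were below 1 unit in all 6 libraries, while S100A8 was at 3.50, 2.69 and 12.7 and S100A9 at 1.93, 7.86 and 13.9 in PL. FABP4, a fatty acid carrier of adipocytes and endothelium, was at 729.5, 705 and 441 in MG and 504, 613 and 497 in W2, and the adipocyte markers ADIPOQ and PLIN1 were not in the table. PLIN4, a lipid droplet protein, was the adipocyte marker at an unadjusted p below 0.05, at 0.557, 1.15 and 0.200 in MG and 4.01, 4.81 and 1.00 in W2, with overlap.

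B cell and plasma cell markers stood lower in W2 than the other immune groups did. All 6 measured markers had a lower mean in W2, with a median of -1.04, and 3 of them had an unadjusted p below 0.05, none of which passed after adjustment (limma adjusted p = 1). JCHAIN, which joins secreted IgA and IgM, was at 670.2, 1076 and 2838 in MG and 494, 795 and 375 in W2. MZB1, a chaperone of antibody secretion, was at 15.0, 19.4 and 40.4 in MG and 13.8, 10.1 and 9.51 in W2. POU2AF1, a B cell coactivator, was at 4.72, 5.06 and 9.54 in MG and 3.44, 2.28 and 2.46 in W2. JCHAIN overlapped and the other two did not (11.2% of the gene sums with a mean of at least 1 unit did not overlap), and MG 6 was the highest sample in each. Without MG 6 the log2 differences of JCHAIN, MZB1 and POU2AF1 went from -1.27, -1.02 and -1.06 to -0.69, -0.61 and -0.76. In PL JCHAIN was at 891, 842 and 709.6, within the MG range. The median of the 6 markers for PL against MG was -0.97, beside -0.57 over all gene sums. A median below MG was therefore not particular to W2.

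Genes of skin keratinocytes set 2 libraries apart. KRT1, a keratin of the upper epidermis, was at 0, 6.25 and 47.2 in MG and 0.0822, 0.294 and 207 in W2. KRT10, its partner, was at 4.27, 6.61 and 33.7 in MG and 2.18, 2.20 and 165 in W2. KRT2, a keratin of the same layers, was at 0, 2.55 and 4.59 in MG and 0.0300, 0 and 53.6 in W2. Their sum was 4.27, 15.4 and 85.5 in MG and 2.29, 2.49 and 425 in W2, high in MG 6 and highest in W2 6, and its part in the results was not tested. Without W2 6, 80 transcripts and 11 gene sums were called, and without MG 6, 67 transcripts and 21 gene sums. The 17 transcripts were all among those called without W2 6 and among those called without MG 6. The 4 skeletal muscle markers were not in the table.

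The 17 called transcripts separated the stages, which follows from their being chosen for this difference, and 13 of their 17 gene sums, not chosen in this way, overlapped. Of the 17, 12 were listed at 0 in all samples of MG or of W2, and no fold is given for these. The fit takes the spread from all 5 stages, and 5 of the 17 were above 0 in at least 1 PL sample. Standard errors of the others thus rest partly on values of 0 in PL. The called transcripts of EGFL7, CENPC, CKAP2, ABI2 and GMEB1 were at 0 in every counted LG, EL and PL library. The same held for MSTRG.2113.15, MSTRG.4403.17 and MSTRG.354.3. These were above 0 in MG alone or in W2 alone, and their standard errors rest on values of 0 in all other stages. In a fit on MG and W2 alone 1 of the 17 was called. There the adjusted p was 0.25 for the STAT5B, 0.22 for the GMEB1 and 0.45 for the ABI2 transcript (limma). Of the 17 sums of their genes or loci 13 overlapped between MG and W2 and 4 did not, beside 11.2% of the 21214 gene sums with a mean of at least 1 unit that did not overlap (1938 above and 446 below MG), and 1 passed the limits, that of the assembled locus MSTRG.10966, whose sum was this transcript alone. The STAT5B transcript XM_021066242.1 (gene at chromosome 12, 20498103 to 20574365, 5 transcripts in the table) was at 1.33, 0 and 0 units in MG and at 38.4, 19.0 and 23.7 in W2, without overlap, and at 8.09, 15.6 and 14.7 in PL. This transcript was also at 36.7, 27.4 and 23.5 in LG 1, 3 and 4 and at 37.8, 14.4 and 23.1 in EL 3, 4 and 6, so MG alone was low. Its W2 minus MG log2 difference was 5.10 (standard error 0.52) with an adjusted p of 0.004 (limma). It made up 0.969, 0 and 0% of the STAT5B sum in MG and 34.2, 9.87 and 14.7% in W2. The other 4 STAT5B transcripts varied strongly between sows of the same stage. XM_021066239.1, for example, was at 63.0, 48.9 and 1.71 in MG and 0.255, 54.2 and 44.5 in W2.

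The transcript XM_005652569.3 of SP1, a general transcription factor (chromosome 5, 18588763 to 18633177), rose from 0.101, 0.141 and 0.133 units in MG to 6.61, 4.07 and 3.78 in W2. Its log2 difference was 3.05 (standard error 0.33) with an adjusted p of 0.0052 (limma), while the SP1 sum was at 18.5, 21.4 and 17.7 in MG and 19.5, 18.5 and 21.2 in W2, with an interval of -0.46 to 0.53. A transcript of GMEB1, which binds the glucocorticoid modulatory element, was listed at 0 in all MG samples and at 4.74, 3.87 and 3.23 in W2 (XM_021095687.1, adjusted p = 0.0025). The GMEB1 sum was at 8.33, 6.14 and 7.42 in MG and 9.44, 7.28 and 9.12 in W2, with overlap. A transcript of ABI2, a regulator of actin, was likewise at 0 in MG and at 2.37, 1.38 and 3.98 in W2 (XM_021075338.1, adjusted p = 0.028), and the ABI2 sum was at 2.94, 2.60 and 1.87 in MG and 2.46, 2.90 and 4.01 in W2, with overlap.

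Other isoforms went in the opposite direction. The transcript XM_005653523.3 of ANPEP, an aminopeptidase of the cell surface, fell from 2.71, 4.52 and 3.25 in MG to 0, 0 and 0.00539 in W2, with a log2 difference of -2.97 (standard error 0.33) and an adjusted p of 0.0063 (limma). The ANPEP sum was at 3.43, 4.70 and 3.69 in MG and 3.92, 4.47 and 4.94 in W2, with overlap. Transcripts of EGFL7 (an endothelial secreted protein), CENPC (of the inner kinetochore), CPTP (a ceramide-1-phosphate carrier) and CKAP2 (a spindle protein) were listed at 0 in all W2 samples and lay between 1.16 and 5.53 units in MG, with adjusted p from 0.0081 to 0.039. Their gene sums differed by -0.02, 0.62, 0.07 and -0.71 on the log2 scale, and of these 4 the CKAP2 sums alone did not overlap.

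In 2 other genes the sum stood lower in W2 along with the transcript, but neither sum was called. The transcript XM_005665745.3 of ATAT1, a tubulin acetyltransferase, was at 2.69, 2.23 and 1.42 in MG and listed at 0 in all W2 samples. The ATAT1 sum was at 4.81, 3.84 and 3.24 in MG and 0.203, 0.378 and 0.153 in W2, without overlap, with a log2 difference of -2.58 (standard error 0.56) and an adjusted p of 0.505 (limma). The gene LOC110256043 had the transcript XM_021067386.1 at 3.48, 13.3 and 10.4 in MG and 0, 0 and 0.0337 in W2. The LOC110256043 sum was at 4.87, 20.7 and 24.9 in MG and 8.06, 3.44 and 1.65 in W2, with overlap and a log2 difference of -1.77 (standard error 0.65).

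The remaining 6 called transcripts were assembled and have no gene name in the table. MSTRG.2113.15 was at 9.78, 7.70 and 11.2 in MG and at 0 in all W2 samples (adjusted p = 0.00019, limma). The sum of its locus was not lower in W2, at 63.6, 66.0 and 59.4 in MG and 74.4, 77.0 and 70.9 in W2, without overlap. Its log2 difference was 0.23 (standard error 0.33) with an interval of -0.48 to 0.94. MSTRG.4403.17, MSTRG.14626.21 and MSTRG.354.3 were at 0 in all MG samples and between 1.46 and 6.66 units in W2. MSTRG.13422.5 was at 0, 0 and 0.144 in MG and 2.08, 2.98 and 2.81 in W2. The sums of these 4 loci overlapped between the stages. The 3 called gene sums were also assembled loci. MSTRG.10966 was at 0 in all MG and PL samples and at 19.1, 18.0 and 21.1 in W2 (adjusted p = 0.0017). MSTRG.17181 was at 0 in all MG and PL samples and at 8.47, 7.68 and 6.50 in W2 (adjusted p = 7.9e-06). MSTRG.3277 was at 9.01, 7.89 and 4.28 in MG and at 0 in all W2 samples (adjusted p = 5.5e-05). In a fit on MG and W2 alone MSTRG.3277 was not called (limma adjusted p = 0.0603). There the adjusted p was 0.0039 for MSTRG.10966 and 0.0074 for MSTRG.17181.

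**Figure D4:**
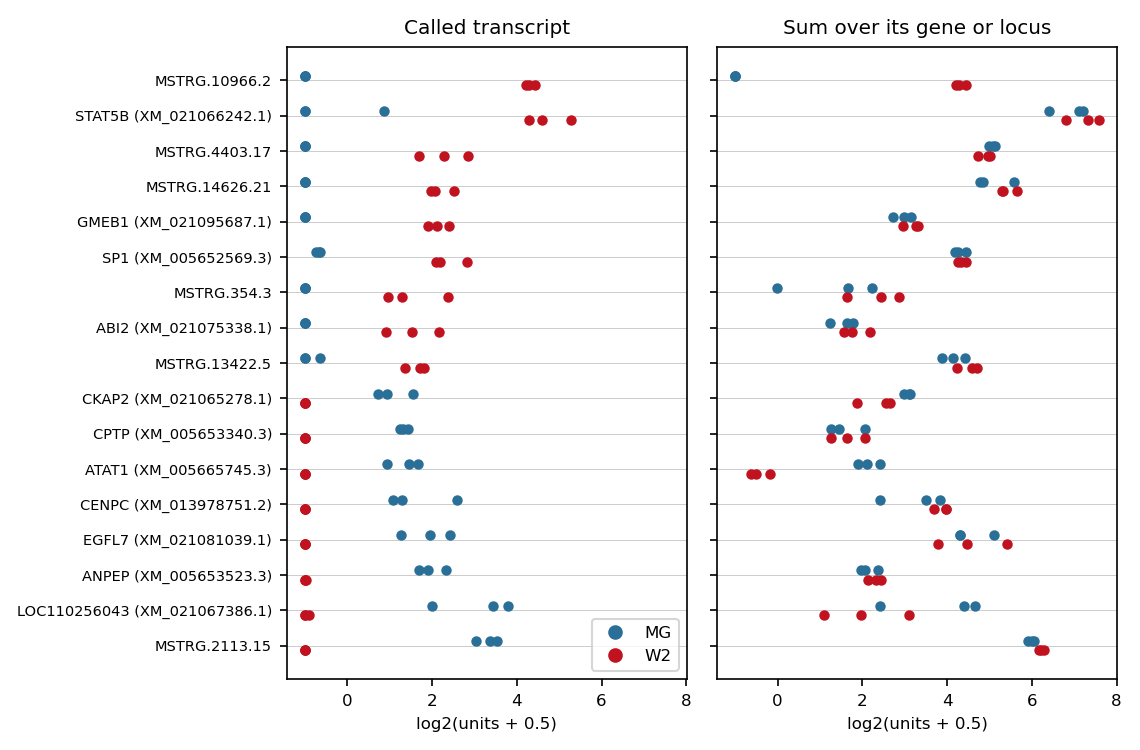
The 17 transcripts called between W2 and MG (left) and the sums of their genes or loci (right) in the 3 MG and 3 W2 libraries, as log2(units + 0.5), where -1 stands for a value of 0. The transcripts were chosen for their difference between the stages, so their separation follows from the choice, and 13 of the 17 sums overlap.

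Some isoforms, called ones among them, were listed at 0 throughout 1 of the stages and above 0 throughout the other. Among 61773 transcripts 267 were at 0 in the 3 MG samples and above 0 in the 3 W2 samples, and 234 the reverse. Of the 229 and 197 gene sums to which these belong, with a mean of at least 1 unit, 79 and 71 had an interval within 1, beside 44.5% of all such sums. The limits were passed by 1 and 0 of them, beside 0.0115% of all gene sums. The 1 was MSTRG.10966, the sum of a called transcript.

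Reference genes with the smallest p among the gene sums were looked up after their values were seen, and none passed the adjustment (limma; 427 reference genes had an unadjusted p below 0.05). GNAI3, an inhibitory G protein subunit, was at 3.22, 1.94 and 2.32 in MG, 13.3, 11.7 and 6.87 in PL and 26.3, 32.5 and 29.7 in W2, with a log2 difference of 3.34 (standard error 0.58) and an adjusted p of 0.18. GCN1, which acts at stalled ribosomes, was at 0.339, 0.741 and 0.224 in MG, 8.01, 12.9 and 15.2 in PL and 16.5, 21.7 and 19.5 in W2 (adjusted p = 0.58). In both, as in VDR, every W2 and every PL sample lay above the MG samples. In LG 1, 3 and 4 GNAI3 was at 22.1, 10.5 and 5.29 and GCN1 at 0.225, 15.6 and 18.5, so most LG samples lay above MG as well. DOCK11, an activator of CDC42, was at 0.783, 0.603 and 0.109 in MG and 2.93, 3.15 and 2.79 in W2, with a log2 difference of 1.86 (standard error 0.31) and an adjusted p of 0.18. UFC1, the conjugating enzyme of ufmylation, was at 56.4, 83.4 and 52.0 in MG and 24.1, 20.6 and 33.3 in W2, with a log2 difference of -1.28 (standard error 0.25) and an adjusted p of 0.28. MG and W2 overlapped in none of these 4 genes.

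NCBP2, also looked up after its values were seen and the small subunit of the nuclear cap-binding complex, was listed at 0 in all W2 samples after 21.9, 15.3 and 21.2 units in MG (adjusted p = 0.0929, limma). It lies on chromosome 13, 133177209 to 133192935, where it overlaps PIGZ (133157168 to 133191786), a mannosyltransferase of the GPI anchor pathway. PIGZ stood the other way round, at 5.07, 0.303 and 3.77 in MG and 17.7, 25.4 and 24.2 in W2 (log2 difference 3.08, adjusted p = 0.21). The sum of both genes was 27.0, 15.6 and 24.9 in MG and 17.7, 25.4 and 24.2 in W2, and no test is given because the pair was chosen for these values. Neither value had passed the adjustment. Reads in the shared stretch may have been given to either gene, so the single values of NCBP2 and PIGZ are uncertain. The study also measured NCBP2, VDR and STAT5B by RT-qPCR. It reported trends close to the sequencing over all its tested transcripts together, and the values for NCBP2 alone were not looked at here.

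**Figure D5:**
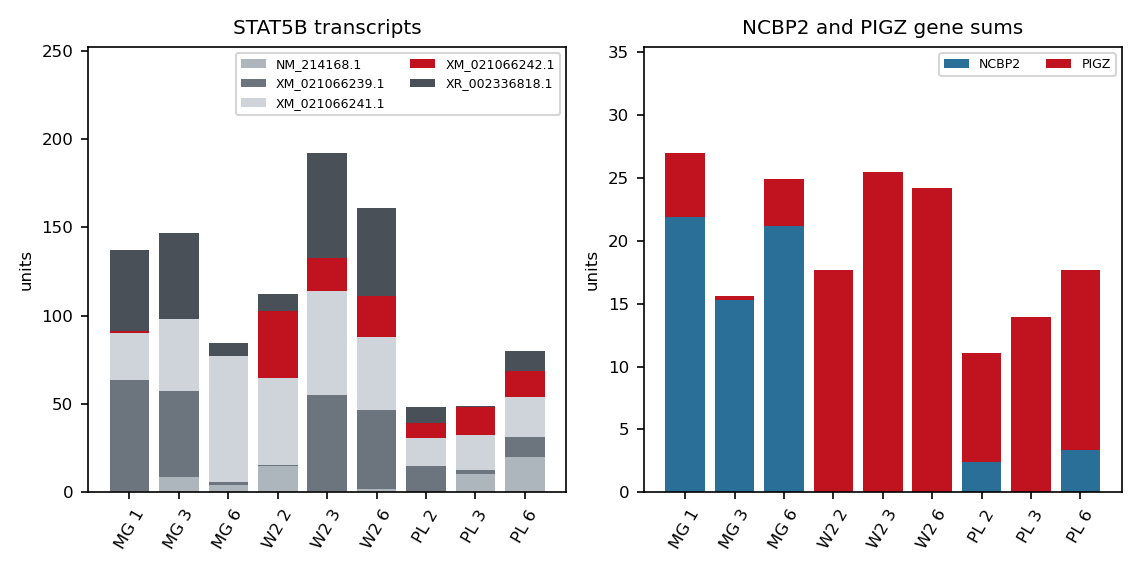
Stacked units of the 5 STAT5B transcripts (left, the called XM_021066242.1 in red) and of the overlapping genes NCBP2 and PIGZ (right) in each counted library of MG, W2 and PL. The red STAT5B part is at or near 0 in MG while the whole bars of MG and W2 overlap, and NCBP2 makes up most of each MG bar on the right and none of the W2 bars.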

How the data were processed

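Total RNA of mammary parenchyma was sequenced with a kit that does not mark strand. The authors trimmed the reads, aligned them with HISAT2 to the pig assembly Sscrofa11.1, assembled and quantified transcripts with StringTie, and kept transcripts with a value of at least 0.5 in 1 stage. The deposited values are named FPKM by the authors, but they add up to between 997480 and 1002643 in each library and were treated as TPM. Whether the deposited table was corrected for unwanted variation (a step the study describes) is not given in the sources used here.

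Libraries were grouped by their titles. Of each stage 3 near-identical libraries were left out. Transcripts, and their sums per gene or assembled locus, were compared as log2(value + 0.5) with limma 3.58.1 (R 4.3.3, moderated statistics with a trend), in 1 fit over 5 stages with 3 samples each and Benjamini-Hochberg adjustment over all features. A feature was called where its log2 fold change was 2 or more in size and its adjusted p below 0.05. Single sums were compared by two-sided exact permutation tests (numpy 2.4.6). The test of distances was one-sided and counted the divisions with an excess at least as large as the observed one. The fit was tried on simulated normal values for the counted libraries of all 5 stages (61773 transcripts). Each transcript had its mean over all stages and its spread within stages. The fit recovered 51 of 100 planted log2 changes of 2.5 and 80 of 100 of 4, with 8 false calls. Changes were planted only in transcripts with a mean log2 value above 2, so recovery at lower levels was not tested. The genes named were up to 4 of the most abundant members of each list, the called features and the sums of their genes. Milk proteins beyond these, members at an unadjusted p below 0.05 that are not abundant, STAT5A, MCM5 and the genes of the last paragraphs of the results were chosen after their values were seen. The comparison, the lists and the genes were chosen with earlier results of these data known. No sequence is printed, and reads were not analysed here. Some members of the interferon and B cell lists are not reported here by name.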

Additional observations from a re-analysis of the deposited data

How the results depend on the processing

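The 17 called transcripts became 30 with a pseudocount of 0.1, 5 among transcripts with a mean of at least 1 unit, 24 without PL replicate 2 (a setting chosen after seeing the data), and 39 (9 of the 17 among them) with the stage names of the sample records in place of the titles. They became 2391 with all 6 libraries per stage and 281 with the near-identical libraries counted once, settings in which repeated values narrow the spread. Leaving out 1 library at a time gave 61 to 82 transcripts and 7 to 21 gene sums, and 16 or 17 of the 17 transcripts were kept each time. The cause was not tested. The 3 called gene sums became 19 in a fit on MG and W2 alone, 369 with all 6 libraries, 38 with near-identical ones counted once, 61 with the stage names exchanged, 5 without PL replicate 2 and 0 with reference genes only. Of the 3, MSTRG.3277 was not among the 19. The 9439 sums with an interval within 1 became 14743 with all 6 libraries and 4640 with the stage names exchanged. None of the 17 transcripts changed sign, but of the 159 named gene sums, nearly all not called, 17 to 23 did without 1 library, 2 to 19 under other settings that moved any, and 40 with the stage names exchanged. There ATAT1 went to 0.32 and CKAP2 to 0.03, and without W2 6 IL6ST went to 0.22. Replicates 3 and 6 of both stages share only a number (correlation of deviations 0.068 and -0.044), and the fit with the replicate block gave 6 transcripts, 3 of them among the 17, and 3 gene sums. The absence of read counts and the 3 sows per stage limit precision.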
